A study of Mus musculus with 6 samples.

Results

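The BCL2 family of apoptosis genes was followed in the bone marrow of erythropoietin-deficient mice given recombinant human erythropoietin (rHuEPO). The members are 10 genes, Bcl2l1, Mcl1, Bcl2, Bax, Bak1, Bcl2l11, Bbc3, Pmaip1, Bad and Bid, and they were found by matching the transcript accession of each array probe to RefSeq. They hold 16 of the 41174 gene probes on the array, 7 of them for antiapoptotic and 9 for proapoptotic genes. Bcl2l1 has 3 probes, Mcl1, Bcl2, Bak1 and Bcl2l11 have 2 each, and the other 5 genes have 1 each.

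BCL2 family proteins decide whether the outer membrane of the mitochondrion is opened, which releases cytochrome c and starts the caspase cascade. BAX and BAK1 open the membrane, BCL-XL (from Bcl2l1), MCL1 and BCL2 hold them back, and the BH3-only proteins BIM (from Bcl2l11), PUMA (from Bbc3), NOXA (from Pmaip1), BAD and BID counter the protectors or act on BAX and BAK1 directly. Erythroblasts are known for their need of erythropoietin for survival, and BCL-XL is the member best known from that setting, as a gene acted on by the transcription factor STAT5 downstream of the receptor.

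All animals were male ISAM mice of mixed strain, 10 weeks old, with the genotype Epo-/-::3.3K-Epo3'-Tg458, so the rHuEPO and the control arm alike lacked the endogenous Epo gene and carried an Epo transgene that leaves the adult anemic. There was no wild-type group. The rHuEPO arm held 3 samples from marrow taken 6 h after an intraperitoneal dose of 3000 U/kg. Its comparison arm, called control here, combined 2 samples given only the saline vehicle (PBS) for the same 6 h with 1 sample from an uninjected animal, called untreated. RNA came from whole femoral marrow, so fewer cells of a type and less RNA per cell cannot be told apart in any value below. Whether each sample came from its own animal is not said in the labels, and the p-values therefore describe the spread between samples, which may be technical.

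Each sample was hybridised to its own 1-colour Agilent array. Levels are log2 of the processed spot signal relative to the 75th percentile of the same array, and differences are rHuEPO minus control on that scale, with the standard error (SE) or the 95% interval from limma. A level of 0 therefore lies at the 75th percentile of the array's gene spots. Levels of different probes depend on the probe and are not compared with each other. The untreated array shared slide 1 with rHuEPO replicate 1, while the remaining 4 arrays were on slide 2. No spot was saturated. The share of gene spots well above background was 48.6% to 50.5% on the control arrays and 46.2% to 46.6% on the rHuEPO arrays. Negative control spots had median signals of 3.74 to 4.03 in the control arm but 4.73 to 5.51 in the rHuEPO arm, which touches the dimmest member probes. Cish, a feedback inhibitor of the STAT5 pathway, was higher by 4.16 ± 0.30 (SE, 3 against 3 arrays; limma adjusted p = 0.0116), so the rHuEPO arrays carry a response on the same scale. Neither of the Epo probes was well above background on any array. Markers of the erythroid, neutrophil, B, T and NK, monocyte and macrophage, and megakaryocyte lineages were present in both arms.

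No BCL2 family probe passed the test. Limma with Benjamini-Hochberg adjustment over all 19588 tested probes called 0 of the 16 member probes, beside 11 probes called higher on the array (0.0562%) and 0 called lower (0%). Without adjustment, 2 of the 16 had a p under 0.05, the brighter Bcl2l11 probe on the low side (2.21% of all probes) and the Pmaip1 probe on the high side (2.31%), beside 886 of all probes in either direction (4.52%). With slide as a block it again listed 2 of the 16, beside 11.2% of all probes, and called 0, beside 0.0664%. Bcl2l11 and Pmaip1 were also the 2 member probes whose arms did not overlap, beside 9.84% of all probes. That share was made of 4.97% with the rHuEPO arrays highest and 4.87% with them lowest. With 2 of 16 probes, nothing particular to the family can be read from these counts. All 16 probes passed the filter on dim signals, the second Bcl2l11 probe through the control arrays alone, and 13 were well above background on all 6 arrays.

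**Figure D1:**
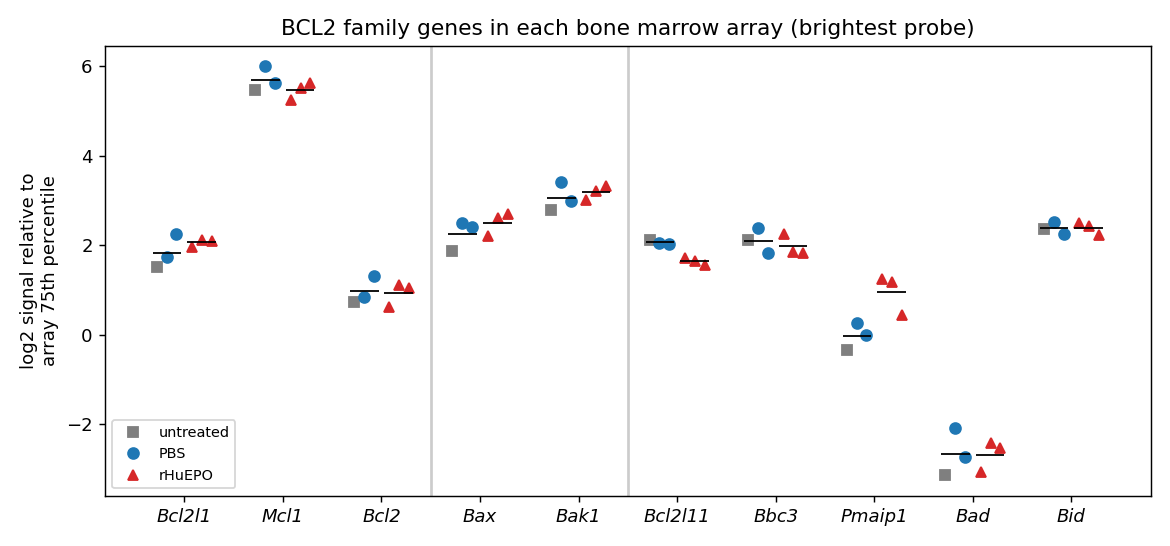
Log2 signal relative to the array's 75th percentile (y axis) for the brightest probe of each of the 10 genes, with 1 point per array and a black line at the mean of each arm of 3. Grey lines part antiapoptotic genes, effectors and BH3-only genes. The arms are apart only for Bcl2l11, with rHuEPO lower, and Pmaip1, with rHuEPO higher.

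Among the protectors, Bcl2l1 had a slightly higher mean after rHuEPO, by less than the spread of the controls, which mix PBS and untreated samples. Its brightest probe read 1.51 in the untreated sample, 1.74 and 2.26 in the PBS samples, and 1.96, 2.13 and 2.09 in the rHuEPO samples. PBS replicate 2 was the highest of the 6 arrays and the untreated sample the lowest, so the rHuEPO arrays lay inside the range of the controls. The mean was 2.06 ± 0.088 (SD, n = 3) after rHuEPO and 1.83 ± 0.38 (SD, n = 3) in the controls. The difference was 0.23 ± 0.23 (SE; limma adjusted p = 1.00), a 1.17-fold ratio with a 95% interval from 0.807-fold to 1.70-fold. An increase in whole-marrow signal beyond 1.70-fold therefore lay outside the interval of this probe.

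The other Bcl2l1 probes gave smaller values of the same sign. The second probe read -0.38 in the untreated sample, -0.89 and -0.18 with PBS, and -0.22, -0.36 and -0.43 with rHuEPO, a difference of 0.15 ± 0.22. The remaining probe read -2.23 in the untreated sample, -2.33 and -1.94 with PBS, and -2.08, -2.09 and -2.13 with rHuEPO, a difference of 0.067 ± 0.18. On all 3 probes PBS replicate 2 was the highest array. Over the 6 arrays the probes followed each other with Pearson correlations of 0.47 between the first and the second, 0.82 between the first and the last and 0.87 between the second and the last, as a description of arrays that share a scaling. Much of the first probe's difference came with the untreated sample, since against PBS alone it was 0.065 ± 0.23. This did not hold for the second probe, which was at 0.20 ± 0.26 against PBS alone. The remaining probe was at 0.036 ± 0.21. Within slide 1 the first probe's difference was 0.45 and within slide 2 it was 0.11.

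The promoter windows of Bcl2l1 are of interest for the response because STAT and GATA factors are the textbook regulators of this gene in erythroid cells. RefSeq (GRCm38.p6) gives 3 start sites for Bcl2l1, and each window runs from 250 bases before to 50 after the start. The letters TTCNNNGAA, the core that STAT factors bind, were searched on both strands and were found in 0 of the 15 windows of the members other than Pmaip1, beside 8.3% of all 32851 windows. The GATA letters AGATAA were found in 1 of the 15 windows, beside 11.2% of all. That window belongs to Bcl2l1 and lies at chr2:152828440-152828739 on the minus strand. Capitals mark the match, which begins at position -41 relative to the start, in the sequence shown here 5′ to 3′.
Bcl2l1: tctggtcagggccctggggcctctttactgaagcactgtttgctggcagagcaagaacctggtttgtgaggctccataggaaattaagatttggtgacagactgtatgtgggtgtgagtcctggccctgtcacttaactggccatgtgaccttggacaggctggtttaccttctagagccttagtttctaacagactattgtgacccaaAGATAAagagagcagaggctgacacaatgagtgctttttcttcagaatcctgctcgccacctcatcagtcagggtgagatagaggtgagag

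Mcl1, which encodes a short-lived protector on which myeloid cells and early progenitors depend, was at lower mean levels after rHuEPO on its brighter probe and at equal levels on the other. The brighter probe read 5.46 in the untreated sample, 6.00 and 5.62 with PBS, and 5.26, 5.51 and 5.62 with rHuEPO. PBS replicate 1 was the highest array, rHuEPO replicate 1 the lowest, and the arms overlapped. The difference was -0.23 ± 0.21 (SE; limma adjusted p = 1.00), with a 95% interval from 0.606-fold to 1.20-fold. It was -0.21 within slide 1 and -0.24 within slide 2. The second probe read 3.45, 4.02 and 3.90 in the untreated and PBS samples and 3.50, 3.91 and 3.95 in the rHuEPO samples. Here both slide 1 arrays were low and the other 4 alike, and the difference was -0.0030 ± 0.23.

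Bcl2, the founding protector of the family and abundant in lymphocytes, showed no difference that exceeded the spread, and its probes disagreed on the order of the arrays. The probe for accession NM_009741 read 0.73 in the untreated sample, 0.85 and 1.31 with PBS, and 0.62, 1.12 and 1.05 with rHuEPO, a difference of -0.036 ± 0.23. The probe for NM_177410, a different transcript of the gene, read 0.91, 0.21 and 0.57 in the untreated and PBS samples and 0.72, 0.36 and 0.48 with rHuEPO, a difference of -0.040 ± 0.23. The untreated sample was thus the highest array on one probe and the second lowest on the other, and their correlation over the 6 arrays was -0.41. The summed signal of 10 B cell markers, 9 of them well above background on all arrays, varied widely among the controls, from 50.9 to 288 times the array's 75th percentile, against 105 to 131 on the rHuEPO arrays. The part of B cell content in the Bcl2 values was not tested.

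The effectors Bax and Bak1 had differences above 0, each within the spread. Bax read 1.86 in the untreated sample, 2.49 and 2.41 with PBS, and 2.20, 2.60 and 2.71 with rHuEPO. The untreated sample was the lowest array, and 2 rHuEPO arrays lay above all controls. The difference was 0.25 ± 0.24 (SE; limma adjusted p = 1.00), with a 95% interval from 0.802-fold to 1.76-fold. Against PBS alone the Bax difference was 0.053 ± 0.23, because the untreated sample lay 0.59 ± 0.31 below PBS (limma adjusted p = 0.668). Bak1 read 2.78, 3.40 and 2.99 in the untreated and PBS samples and 3.01, 3.22 and 3.33 with rHuEPO, a difference of 0.13 ± 0.22. Its difference against PBS alone was -0.013 ± 0.23. The second Bak1 probe was well above background on 2 arrays of each arm, with a difference of 0.17 ± 0.24.

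The 5 BH3-only genes held both members whose arms were apart, and these lay on opposite sides. Bcl2l11 encodes BIM, a death activator of blood cells that forkhead factors of the FOXO group induce and that growth factor signalling keeps low. Its brighter probe read 2.11 in the untreated sample, 2.06 and 2.03 with PBS, and 1.72, 1.65 and 1.55 with rHuEPO. All 3 rHuEPO arrays lay below all 3 controls, and the control mean was 2.07 ± 0.040 (SD, n = 3). The difference was -0.42 ± 0.16 (SE), a 0.745-fold ratio with a 95% interval from 0.574-fold to 0.968-fold. The unadjusted limma p was 0.0322 and the adjusted p 1.00, or 0.330 with slide as a block, so it did not pass the test over all probes.

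The Bcl2l11 value was of like size in each slide, -0.38 in slide 1 and -0.44 in slide 2, and was -0.40 ± 0.20 against PBS alone. With 1 array left out it ran from -0.46 to -0.38. The second Bcl2l11 probe was too dim to bear on it. That probe passed the filter only through the 3 control arrays, stayed near background on all 3 rHuEPO arrays, and no fold can be given for it. Its readings were -3.64, -3.34 and -3.62 in the untreated and PBS samples and -3.78, -3.59 and -3.40 with rHuEPO.

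Pmaip1 encodes NOXA, which binds MCL1 and is known as a target of p53 and of stress pathways. It read -0.35 in the untreated sample, 0.25 and -0.0074 with PBS, and 1.24, 1.17 and 0.44 with rHuEPO. All 3 rHuEPO arrays lay above all 3 controls, although rHuEPO replicate 3 stood closer to PBS replicate 1 than to the other rHuEPO arrays. The difference was 0.98 ± 0.28 (SE), a 1.98-fold ratio with a 95% interval from 1.26-fold to 3.1-fold. The unadjusted limma p was 0.00869 and the adjusted p 0.846, or 0.330 with slide as a block. It was 1.58 within slide 1 and 0.68 within slide 2. Against PBS alone it was 0.83 ± 0.30 (limma adjusted p = 0.999), and with 1 array left out it ran from 0.83 to 1.24. The Pmaip1 result rests on a single probe.

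Among the markers beside these members, the summed signal of the 10 erythroid markers was 2089 to 2384 times the 75th percentile on the control arrays and 2083 to 2452 on the rHuEPO arrays. By single markers, 8 of the 10 erythroid genes had differences above 0 (median 0.34), as did 7 of the 9 monocyte and macrophage genes (median 0.31), 7 of the 9 T and NK cell genes (median 0.19) and 5 of the 9 neutrophil genes (median 0.0064), beside 51.2% of all named genes. Among the erythroid markers, the transferrin receptor gene Tfrc had every rHuEPO array above the controls (0.97 ± 0.20). All 7 megakaryocyte markers had differences below 0 (median -0.22), and 8 of the 10 B cell markers did (median -0.18). The megakaryocyte sign came with rHuEPO replicate 1 alone. Those differences ran from -1.49 to -0.90 within slide 1 and from 0.18 to 0.43 within slide 2. No marker passed the test. The summed signal of 9 neutrophil markers was 1851 to 2433 on control and 1790 to 2357 on rHuEPO arrays. That of 9 T and NK cell markers was 34.9 to 46.8 and 36.9 to 43.2, that of 9 monocyte and macrophage markers 362 to 544 and 395 to 409, and that of 7 megakaryocyte markers 131 to 180 and 55.3 to 252. The arms overlapped on all of these sums, and the part of cell composition in the Bcl2l11 and Pmaip1 values was not tested.

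**Figure D2:**
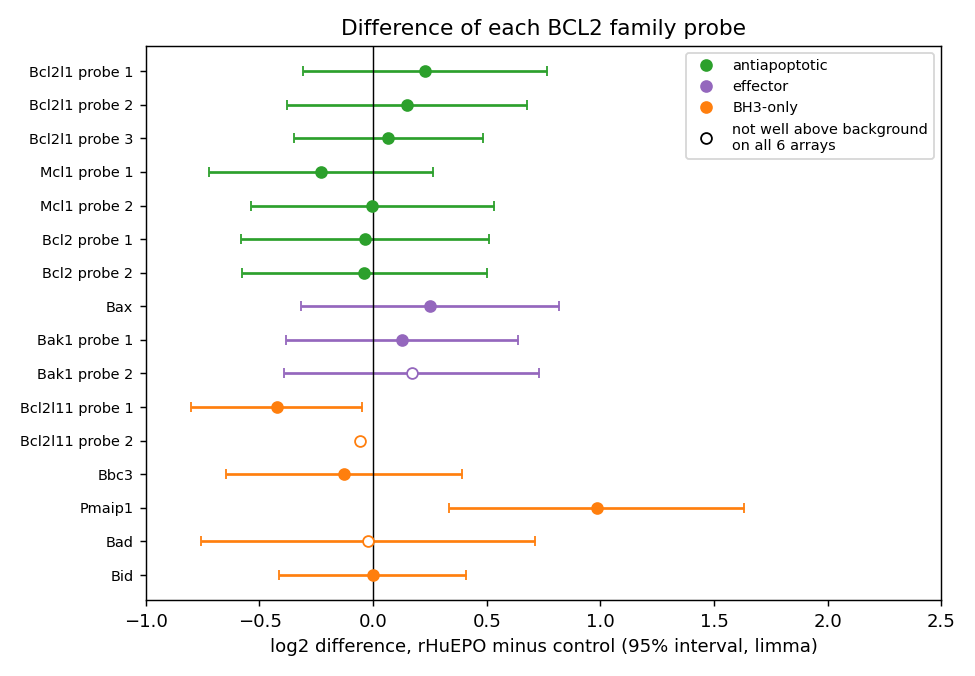
Log2 difference, rHuEPO minus control (x axis), for each of the 16 probes, ordered by role, with 95% intervals from limma that are not adjusted for the number of probes. Open points are probes not well above background on all 6 arrays, and the second Bcl2l11 probe, which was well above background on control arrays only, has no interval. The intervals of Bcl2l11 probe 1 and Pmaip1 lie off 0, and those of the other probes cross it.

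The remaining BH3-only genes showed no difference beyond the spread. Bbc3, which encodes the p53 target PUMA, read 2.10, 2.37 and 1.82 in the untreated and PBS samples and 2.26, 1.84 and 1.82 with rHuEPO, a difference of -0.13 ± 0.22. It was 0.15 within slide 1 and -0.27 within slide 2, so its sign differed between the slides. Bid, which links death receptors to mitochondria, gave the flattest profile among the brightest probes of the 10 genes, from 2.23 to 2.52 over the 6 arrays and with a difference of -0.0026 ± 0.17 (95% interval 0.751-fold to 1.33-fold). Bad, whose product is held inactive by phosphorylation in growth factor signalling, was dim and varied from -3.14 to -2.09, with a difference of -0.023 ± 0.31. It was not well above background on rHuEPO replicate 1.

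Among the promoter windows, Bcl2l11 and Bbc3 shared a forkhead sequence, which is shown because FOXO factors are known to act on both genes. The letters GTAAACA, searched on both strands, occurred in 2 of the 15 windows, 1 of each gene, beside 3.65% of all windows. The Bcl2l11 window lies at chr2:128125788-128126087 on the plus strand, with the match starting at position -227 relative to the start site and a CCAAT box (ATTGG on this strand) at -57. The Bbc3 window lies at chr7:16310011-16310310 on the plus strand, with the reverse form (TGTTTAC) at position -167. The matches are in capitals, 5′ to 3′.
Bcl2l11: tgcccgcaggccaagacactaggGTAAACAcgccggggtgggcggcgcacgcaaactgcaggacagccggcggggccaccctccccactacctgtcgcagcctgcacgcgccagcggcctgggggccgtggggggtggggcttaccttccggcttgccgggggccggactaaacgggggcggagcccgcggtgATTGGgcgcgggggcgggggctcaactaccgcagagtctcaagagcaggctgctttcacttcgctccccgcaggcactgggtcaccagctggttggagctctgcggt
Bbc3: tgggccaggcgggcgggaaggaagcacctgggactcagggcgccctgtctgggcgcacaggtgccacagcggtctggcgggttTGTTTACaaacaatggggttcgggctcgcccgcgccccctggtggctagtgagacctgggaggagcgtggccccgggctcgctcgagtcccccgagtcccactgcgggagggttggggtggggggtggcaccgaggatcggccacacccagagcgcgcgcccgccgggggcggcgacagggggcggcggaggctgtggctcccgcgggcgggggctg

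The differences of both genes lay below 0, at -0.42 ± 0.16 for Bcl2l11 and -0.13 ± 0.22 for Bbc3. Neither passed the test, and the difference between them was not tested. The sign is not particular to the match. Bbc3 was at 0.15 within slide 1 and -0.27 within slide 2. Of the 5 BH3-only genes 4 lay below 0, among them Bad and Bid, whose windows held no forkhead letters. The letters CACGTG, an E-box, were in 2 of the 15 windows, in Bax and Bbc3, beside 7.15% of all, and CCAAT was in 4 of the 15, beside 37.4%. A match is only a run of letters in the window, and nothing about binding was measured. The RNA of Foxo3 itself was too dim to test.

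Set side by side by role, the protectors and the death genes had medians close to that of all probes. Over the brightest probe of each gene, the median difference was -0.036 for the 3 antiapoptotic genes, of which 1 lay above 0, and -0.0026 for the 7 proapoptotic genes, of which 3 lay above 0. Over all tested probes the median was -0.014, with 47.7% above 0. Over the brightest probe of each named gene, the like unit, it was 0.0064, with 51.2% above 0. Within the proapoptotic genes the median was 0.19 for the 2 effectors and -0.023 for the 5 BH3-only genes. On the single arrays the antiapoptotic median, relative to the control mean of each gene, was -0.23 in the untreated sample, -0.098 and 0.35 with PBS, and -0.34, 0.15 and 0.081 with rHuEPO. The proapoptotic median was -0.28, 0.27 and -0.067 in the untreated and PBS samples and -0.052, 0.16 and 0.12 with rHuEPO. Both arms overlapped on both medians, and the array with the lowest antiapoptotic median was rHuEPO replicate 1.

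Pairs of a protector and a death gene, chosen after their values were seen, moved unequally. Bcl2l1 minus Bcl2l11, with both set relative to their control means, was -0.37 in the untreated sample, -0.089 and 0.46 with PBS, and 0.47, 0.70 and 0.78 with rHuEPO. Mcl1 minus Pmaip1 was 0.083 in the untreated sample, 0.021 and -0.10 with PBS, and -1.71, -1.38 and -0.55 with rHuEPO. On the rHuEPO arrays the first pair lay toward the protector and the second toward the death gene. PBS replicate 2 was next to the lowest rHuEPO array in the first pair. These directions follow from the choice of pairs, because Bcl2l11 and Pmaip1 were the members whose arms were apart. Other pairs were not formed, so no balance between protectors and death genes can be read from them.

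**Figure D3:**
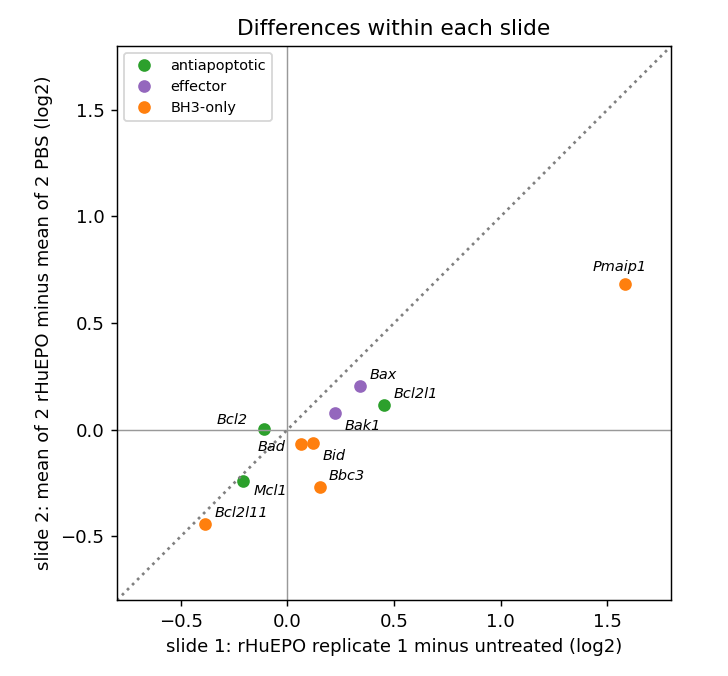
Difference within slide 1 (rHuEPO replicate 1 minus the untreated sample, x axis) against the difference within slide 2 (mean of 2 rHuEPO minus mean of 2 PBS arrays, y axis), both on the log2 scale, for the brightest probe of each gene. The dotted line marks equal values. Bcl2l11 lies near the line at -0.38 and -0.44, whereas Pmaip1 is at 1.58 and 0.68.

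The injection itself was looked at through the untreated sample, which is 1 array and is assumed to vary like the other groups. Untreated minus PBS was -0.49 ± 0.31 for the brightest Bcl2l1 probe, -0.59 ± 0.31 for Bax, -0.47 ± 0.40 for Pmaip1 and 0.065 ± 0.26 for Bcl2l11. No member probe was called in this comparison, nor in rHuEPO against PBS, where limma called 4 of all probes (0.0204%), with 709 at an unadjusted p under 0.05 (3.62%). In untreated against PBS it called 0 of all probes (0%), with 1050 at an unadjusted p under 0.05 (5.36%). The untreated sample also differs from the PBS samples in slide, so treatment and slide cannot be told apart there.

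The wider apoptosis machinery was described through 7 lists with 75 genes, of which 64 were tested, each by its brightest probe. Limma called 0 of the 64, beside 0.0803% of the 11209 named genes, and listed 6 (9.38%) at an unadjusted p under 0.05, beside 4.07% of the named genes. Of the 64, 33 (51.6%) lay above 0, beside 51.2% of the named genes. The 6 genes were Bmf, Ripk1, Aen, Trp53inp1, Phlda3 and Pim1.

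Other protectors were the lymphoid and myeloid gene Bcl2a1b (0.53 ± 0.25) and Bcl2l2, which encodes BCL-W (-0.11 ± 0.23). Bcl2a1b belongs to a cluster of near-identical copies that an array probe may not tell apart. The median of the 3 tested genes of that list was 0.12. Of the 8 tested proapoptotic or BCL2-like genes, Bmf, a BH3-only gene close in role to Bcl2l11, had all rHuEPO arrays (1.52, 1.12 and 1.65) below all controls (1.83 untreated, 1.96 and 2.29 with PBS). Its difference was -0.59 ± 0.22 (SE; limma adjusted p = 1.00). Bnip3l, the mitophagy receptor NIX that clears mitochondria from maturing red cells, read 3.37 untreated, 2.81 and 3.35 with PBS, and 3.04, 2.53 and 2.31 with rHuEPO. Its difference was -0.55 ± 0.26, with arms that overlapped. The list's median was -0.055, with 3 of 8 above 0.

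Downstream of the mitochondrion, the 15 caspase and apoptosome genes had a median of -0.011, with 6 above 0. The initiator Casp2 (-0.29 ± 0.19) and the mitochondrial nuclease Endog (0.33 ± 0.22) had the smallest p. The 7 tested inhibitor of apoptosis genes had a median of -0.11 with 2 above 0, led by Naip5 (-0.27 ± 0.22) and Birc3 (-0.13 ± 0.17). In the death receptor pathway, Ripk1, the adaptor kinase of the TNF receptor, read 1.33 untreated, 1.51 and 1.22 with PBS, and 1.85, 1.77 and 1.76 with rHuEPO. All rHuEPO arrays lay above the controls, with a difference of 0.44 ± 0.17 (SE; limma adjusted p = 1.00). Fadd, its partner adaptor, was at 0.13 ± 0.17, and the median of the 7 tested genes was 0.018.

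The p53 targets were looked at because Pmaip1 and Bbc3 belong to them. The list also holds Trp53, the gene of p53 itself (-0.041 ± 0.21). With it, the median of the 9 tested was 0.028, with 5 above 0. Aen, an apoptosis-enhancing nuclease, read 0.16 untreated, 0.23 and 1.05 with PBS, and 1.06, 1.42 and 1.83 with rHuEPO, a difference of 0.95 ± 0.31 (SE; limma adjusted p = 0.968). Its lowest rHuEPO array was level with PBS replicate 2. Trp53inp1, a stress-induced p53 cofactor, lay on the other side, with every rHuEPO array below the controls and a difference of -0.67 ± 0.23 (SE; limma adjusted p = 0.977). Phlda3, another of these targets at an unadjusted p under 0.05 and named after its value was seen, was at 1.10 ± 0.38 with overlapping arms. Cdkn1a (0.028 ± 0.39) and Mdm2 (0.081 ± 0.19), the most used p53 readouts and likewise named after their values were seen, had differences within the spread.

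Of the 15 tested regulators of BCL2 proteins, 11 lay above 0 and the median was 0.066. The kinase Pim1, a STAT5-induced survival gene, was at 1.41 ± 0.36 with all rHuEPO arrays above all controls (limma adjusted p = 0.750). Ddit3, the stress factor CHOP, was at 0.29 ± 0.18.

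**Figure D4:**
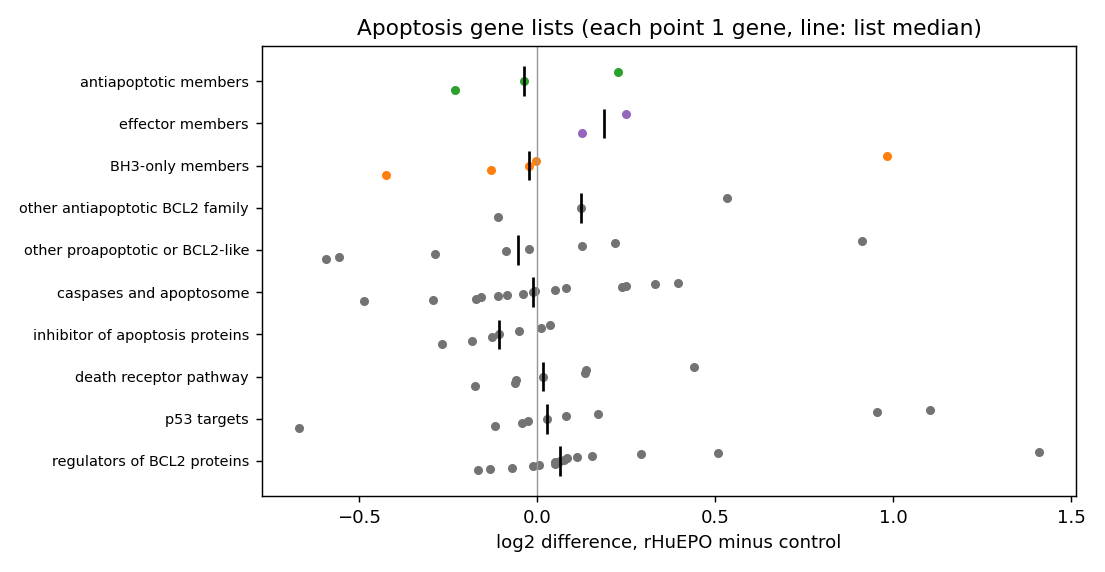
Log2 difference, rHuEPO minus control (x axis), of each tested gene by list, with 1 point per gene and a vertical line at the list median. List medians lie between -0.11 and 0.19, and the points farthest from 0 are Pim1 at 1.41, Phlda3 at 1.10 and Pmaip1 at 0.98.

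Genes whose profile over the 6 arrays was most like a member were listed by Pearson correlation among the brightest probes of 11004 named genes, as a description of arrays that share a scaling and 2 slides. For Bcl2l1 they were Sae1, Dhrs11, Cdkal1, Smarcb1 and Ciapin1, with correlations from 0.970 to 0.985. For Mcl1 they were Stk26, Chmp1b, Slc25a36, Zdhhc20 and Sik3 (0.991 to 0.997), and for Bcl2l11 they were Mpp2, Fam161a, Lrrcc1, Kctd12 and Prkcb (0.971 to 0.990). The 5 genes like Bcl2l11 had differences from -1.41 for Lrrcc1 to -0.34 for Kctd12. That sign follows from the search, because the arms of Bcl2l11 were apart and genes were picked for likeness to it. The search kept the highest of 11004 correlations over 6 arrays, so their size is no sign of shared regulation.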

How the data were processed

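Per the labels' protocols, marrow RNA carried Cy3 and each sample had 1 Agilent array. Intensity per spot was deposited as Agilent's scanner software wrote it (per the file headers, Feature Extraction 10.7.3.1). The authors also deposited a table of log2 values. No source used here says how. Against the values computed here, after subtracting each probe's median over the 6 arrays, its columns had slopes from 0.9996 to 1.0004. These settle scale and direction. The median absolute differences, from 0.00225 to 0.0121, bear on the centring. Its medians per array were -0.104 (untreated), -0.0571 and -0.0978 (PBS) and 0.117, 0.0112 and 0.0868 (rHuEPO).

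From the scanner files, control spots (1639 per array) and outlier spots were left out, signals were divided by each array's 75th percentile before log2, and spots of 1 probe were averaged. Testing was limited to probes well above background on 3 or more arrays (19588 of 41157). Accessions without versions were matched to RefSeq (GRCm38.p6), which named 26678 probes. Limma 3.58.1 in R 4.3.3 (lmFit, eBayes, two-sided, Benjamini-Hochberg, threshold 0.05) compared 3 rHuEPO with 3 control arrays, and a fit with 3 groups gave contrasts against PBS. The test was checked on simulated data with changes larger than those of the members. That check does not show whether changes of the members' size would be called. The number of arrays limits the precision, and correlations between arrays ran from 0.9600 to 0.9911.

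Members and gene lists were chosen with earlier results of these data known. All members are named, with the 2 genes of smallest p in each wider list and the 5 genes most correlated with Bcl2l1, Mcl1 and Bcl2l11. Exceptions are stated. Alternatives were other scalings, normexp with an offset of 50, other filters, the deposited table, PBS as the only control, slide or replicate number as a block, 1 probe per gene and leaving out each array. For normexp, run on median signals, 15 spots of PBS replicate 2 whose local background exceeded their signal were left out, a choice made after seeing the data. The values of 1 erythroid marker are not reported here.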

Additional observations from a re-analysis of the deposited data

How the results depend on the processing

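No member probe was called under any alternative tried, and Bcl2l11, Pmaip1 and Bcl2l1 kept their sign in all 15. Over these, Bcl2l11 ran from -0.465 to -0.35 (limma adjusted p from 0.195 to 1.00), Pmaip1 from 0.72 to 1.24 (0.195 to 1.00) and Bcl2l1 from 0.065 to 0.44. Not all 15 could change a sign. The slide block and the other filters left these differences as they were, and the deposited table holds nearly the same values. PBS as the only control is the same fit as leaving out the untreated array. Members near 0 changed sign. With array median scaling, which moved the median of all probes from -0.014 to 0.060, Bcl2 was 0.037, Bad 0.051 and Bid 0.071. Bad was 0.039 with quantile normalization and Bid 0.030 with normexp. Bak1 was -0.013 against PBS alone. With 1 array left out, Bcl2 ran from -0.15 to 0.14, Bak1 from -0.013 to 0.30, Bbc3 from -0.27 to 0.0084, Bad from -0.27 to 0.26, Bid from -0.065 to 0.072 and the proapoptotic median from -0.063 to 0.26, with the highest median without PBS replicate 1. The 11 calls over all probes became 4 with normexp, 2 with no filter, 4 with a filter on all 6 arrays, 4 against PBS alone, 1 with the replicate block and 2 to 7 with 1 array left out. The fit against PBS called 4, and 11 with the untreated sample added to the control. The causes were not tested. The replicate block gave 0.017 for Bbc3 and 0.094 for Bid. Deviations of same-numbered PBS and rHuEPO samples correlated at -0.039 and -0.123. The 2 PBS samples deviate from their mean by equal and opposite amounts, so these values cannot show whether the numbers mark pairs. The numbers were not taken as pairs. Probes near background (Bad, the second Bak1 and Bcl2l11 probes) are limited by signal.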
